A study of Rattus norvegicus with 35 samples.

Results

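The aminoacyl-tRNA synthetases of rat liver were followed across 5 oral doses of TBB. The set was defined as 35 gene symbols, 16 for enzymes of the mitochondrion (names ending in 2) and 19 for enzymes of the cytosol, with older names without the final 1 accepted for the cytosolic genes. A gene was measured through a probe set annotated with its symbol alone. Where it had several, the one chosen was selected on its mean over all 35 arrays, the highest being taken. By that rule 32 of the 14217 genes with such a probe set were members, 13 mitochondrial and 19 cytosolic. The mitochondrial Lars2, Pars2 and Mars2 had no probe set of that kind and were not analysed here.

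TBB, 2-ethylhexyl-2,3,4,5-tetrabromobenzoate, is a brominated flame retardant. Male Harlan Sprague Dawley rats, 7 weeks of age when the study began, received TBB in corn oil (5 ml/kg) by gavage on 5 days in a row, and the left liver lobe was taken 1 day after the last dose. The groups were corn oil alone (vehicle, n = 5 arrays) and TBB at 5 doses, from 0.05 mg/kg through 0.55, 5.50 and 55 mg/kg to 550 mg/kg (n = 6 arrays each), all of 1 strain and sex and all given the same oil. The labels number the arrays but leave unsaid whether each came from its own rat, so the p-values measure the spread between these arrays.

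An aminoacyl-tRNA synthetase joins an amino acid to the tRNAs that carry it, the step that sets the meaning of each codon. Most animal cells keep separate enzymes for the cytosol and for the mitochondrion. The mitochondrial enzymes are encoded in the nucleus, imported, and serve the translation of the few membrane proteins of the respiratory chain that mitochondrial DNA encodes. Many cytosolic synthetase genes are known targets of ATF4, the transcription factor induced when amino acids run short or proteins misfold, and several of the cytosolic enzymes sit in a shared multisynthetase complex. In whole liver, fewer cells of a type and less RNA per cell cannot be told apart.

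The values are log2 expression per probe set, so a difference of 1 is a doubling, and differences are given on that scale with the standard error of the fit. Calls are at adjusted p under 0.05 from limma across all 31042 probe sets tested, with Benjamini-Hochberg adjustment over all of them. Pairs of arrays correlated at 0.988 to 0.996 over all probe sets, and no pair was identical. The 95% interval of a member's difference between 550 mg/kg and vehicle reached 0.12 to 0.29 to either side (median 0.17).

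At 550 mg/kg, the transcripts of 2 mitochondrial synthetases rose against vehicle, Tars2, which charges the threonine tRNA, and Iars2, which charges the isoleucine tRNA. Among all probe sets tested, 0.354% were called higher and 0.145% lower in this comparison. No cytosolic synthetase was called in either direction in the limma fit, and 1 of the 19 (Gars1) had an unadjusted p under 0.05. Among the 13 mitochondrial members 6 had such an unadjusted p (Aars2, Fars2, Iars2, Rars2, Sars2 and Tars2), all with a higher value at 550 mg/kg. Over all genes the share with an unadjusted p under 0.05 was 10.8%, in either direction.

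Tars2 read 8.24, 8.23, 8.16, 8.21 and 8.30 on the 5 vehicle arrays. The 6 arrays at 550 mg/kg ran from 8.32 to 8.61, with a median of 8.55. All 6 were therefore above the highest vehicle array, although the lowest of them exceeded it by little. The difference was 0.28 ± 0.06, a level 21.5% above vehicle (adjusted p = 0.014, limma). A second, dimmer Tars2 probe set differed by 0.12 ± 0.09 (adjusted p = 0.78, limma), the same direction without a call.

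Iars2 read 7.87, 7.89, 7.76, 7.85 and 7.91 on the vehicle arrays. At 550 mg/kg its 6 arrays ran from 8.00 to 8.33 with a median of 8.11, so the groups did not overlap. The difference was 0.28 ± 0.06, or 21.4% above vehicle (adjusted p = 0.027, limma), on its only probe set. Without vehicle replicate 3, the lowest array for both genes, neither was called (adjusted p = 0.11 for Iars2 and 0.062 for Tars2, limma).

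Fars2, which charges the phenylalanine tRNA as a single polypeptide, was the other member whose arrays separated. Its vehicle arrays read 7.60, 7.67, 7.66, 7.57 and 7.74, and those at 550 mg/kg ran from 7.78 to 7.91 with a median of 7.87. The difference from vehicle was 0.21 ± 0.06 and missed the threshold (adjusted p = 0.12, limma). Arrays at 550 mg/kg lay wholly above vehicle for these 3 mitochondrial members and for no cytosolic member, against 0.796% of all probe sets tested.

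**Figure D1:**
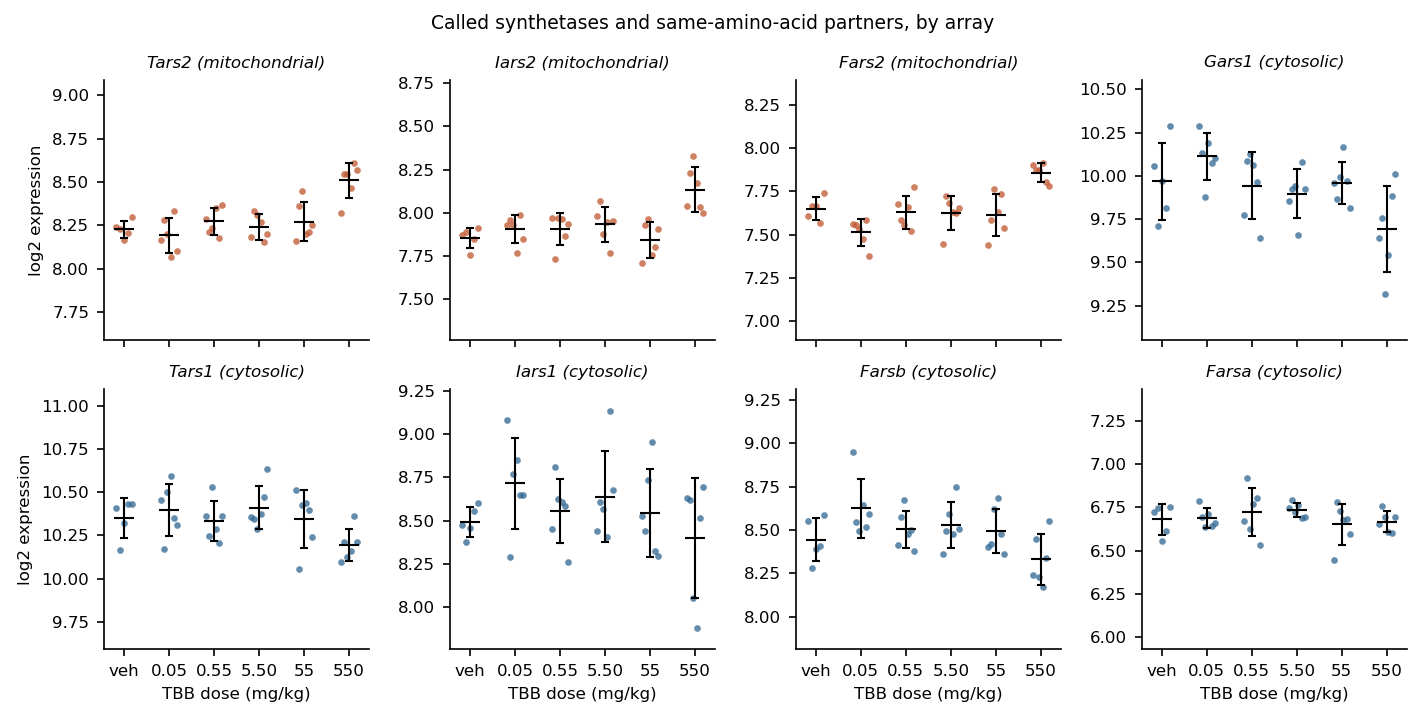
Log2 expression (y axis, each panel 1.5 log2 units high) by dose group in mg/kg (x axis) for Tars2, Iars2, Fars2 and Gars1 and for the cytosolic partners Tars1, Iars1, Farsb and Farsa. Points are arrays and bars are the mean ± SD; for Tars2, Iars2 and Fars2 all 6 arrays at 550 mg/kg lie above all 5 vehicle arrays, while the Gars1 groups overlap.

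The other mitochondrial enzymes differed from vehicle by less than the test could call. Rars2, for arginine, had the next largest difference, 0.26 ± 0.09 (95% interval 0.06 to 0.45, adjusted p = 0.35, limma), with 5 of 6 arrays above every vehicle array. Aars2 (alanine), Nars2 (asparagine) and Sars2 (serine) differed by 0.22, 0.21 and 0.21, with adjusted p of 0.47, 0.71 and 0.15 in limma. Of these, Sars2 was also above vehicle at each lower dose, by 0.07 to 0.17. The Nars2 probe set was dim, with a mean of 3.55 over the 35 arrays, where values of this kind level off. Hars2, Ears2 and Wars2 differed by 0.11, 0.10 and 0.08. The lowest were Yars2 (tyrosine, -0.01), Cars2 (cysteine, -0.01) and Vars2 (valine, -0.01), whose 95% intervals ran from -0.15 to 0.12, from -0.20 to 0.18 and from -0.25 to 0.24.

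Among the cytosolic enzymes, Gars1, the glycine enzyme, which is made for both compartments from a single gene, had the lowest value against vehicle. Its vehicle arrays read 10.06, 9.71, 9.97, 9.82 and 10.29, and its arrays at 550 mg/kg ran from 9.32 to 10.01 with a median of 9.70. The ranges overlapped, with 3 of the 6 treated arrays below the lowest vehicle array. The difference of -0.28 ± 0.11 was not called (adjusted p = 0.38, limma). Yars1 (tyrosine) and Sars1 (serine) came next at -0.18 ± 0.14 and -0.16 ± 0.12, with adjusted p of 0.77 for each in limma. At the other end stood Kars1, the lysine enzyme that also serves both compartments, at 0.02 ± 0.06, and Eprs1, which charges both glutamate and proline tRNAs, at 0.01 ± 0.12.

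**Figure D2:**
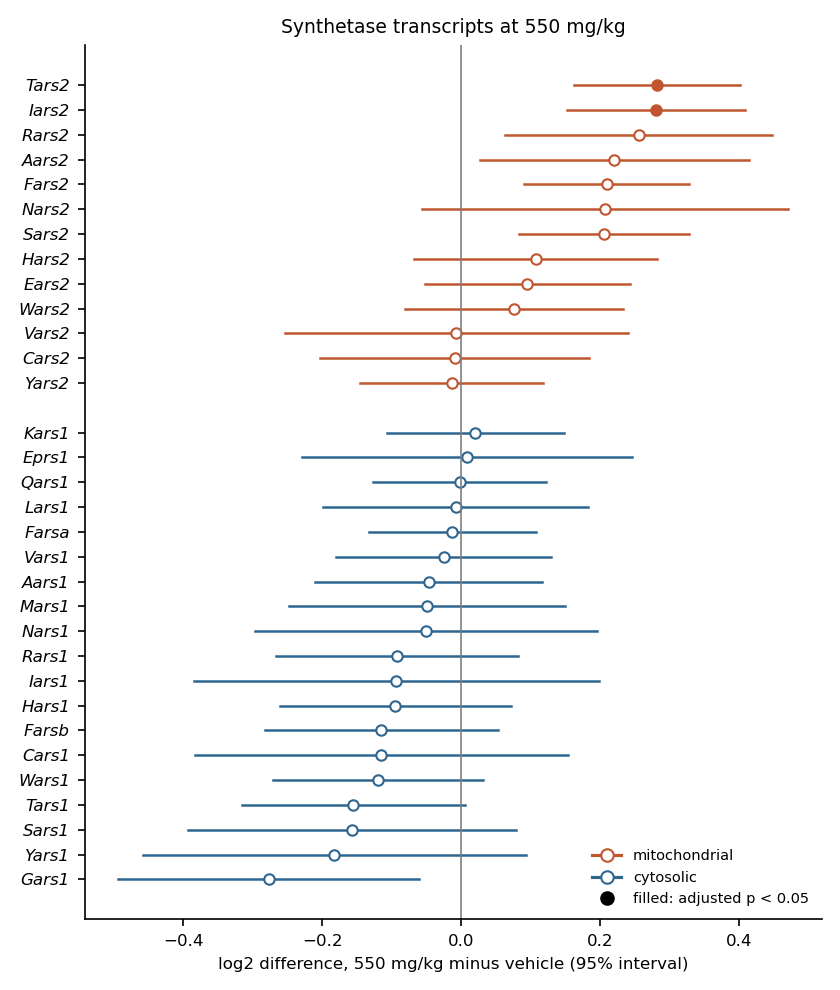
Log2 difference between 550 mg/kg (n = 6) and vehicle (n = 5) on the x axis for each of the 32 measured synthetases on the y axis, with 95% intervals from the fit. Filled points are the called members, Tars2 and Iars2. On the chosen probe sets 10 of 13 mitochondrial values lie above 0 and 17 of 19 cytosolic values below it.

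By compartment, 10 of 13 mitochondrial members were above vehicle at 550 mg/kg, with a median difference of 0.21. Wars2 was among the 10 on its chosen probe set, while its second probe set was below vehicle (-0.18). Of the cytosolic members 17 of 19 were below vehicle, with a median of -0.093. That median came nearest to 0 without 550 mg/kg replicate 3, at -0.028, and was -0.033 without 550 mg/kg replicate 4, -0.042 without vehicle replicate 5 and -0.055 without vehicle replicate 1. The mitochondrial median was 0.12 without 550 mg/kg replicate 1. Over all 14217 genes the median was -0.008, and 46.5% were above vehicle. These counts describe the set and carry no test, since the members were chosen with results of these data known.

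The mean log2 value of the 13 mitochondrial members was 6.59 to 6.70 on vehicle arrays and 6.75 to 6.85 at 550 mg/kg, so all 6 treated arrays lay above the vehicle range. The mean of the 19 cytosolic members was 8.74 to 9.06 on vehicle arrays and 8.64 to 8.99 at 550 mg/kg. Only 2 of the 6 treated arrays, replicates 3 and 4, fell below the vehicle range, and none lay above it. Of the 6, 3 stood above the vehicle mean. In 550 mg/kg replicates 1 to 6, 4, 13, 3, 1, 10 and 14 of the 19 cytosolic members were above their vehicle means. The fall was thus not shared by all treated arrays. For the 13 mitochondrial members the counts were 9, 12, 12, 12, 11 and 11. On average the mitochondrial mean was 0.15 higher and the cytosolic mean 0.08 lower at 550 mg/kg. Taken within each array, the mitochondrial mean gained 0.23 on the cytosolic mean, and 5 of 6 arrays lay above every vehicle array.

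**Figure D3:**
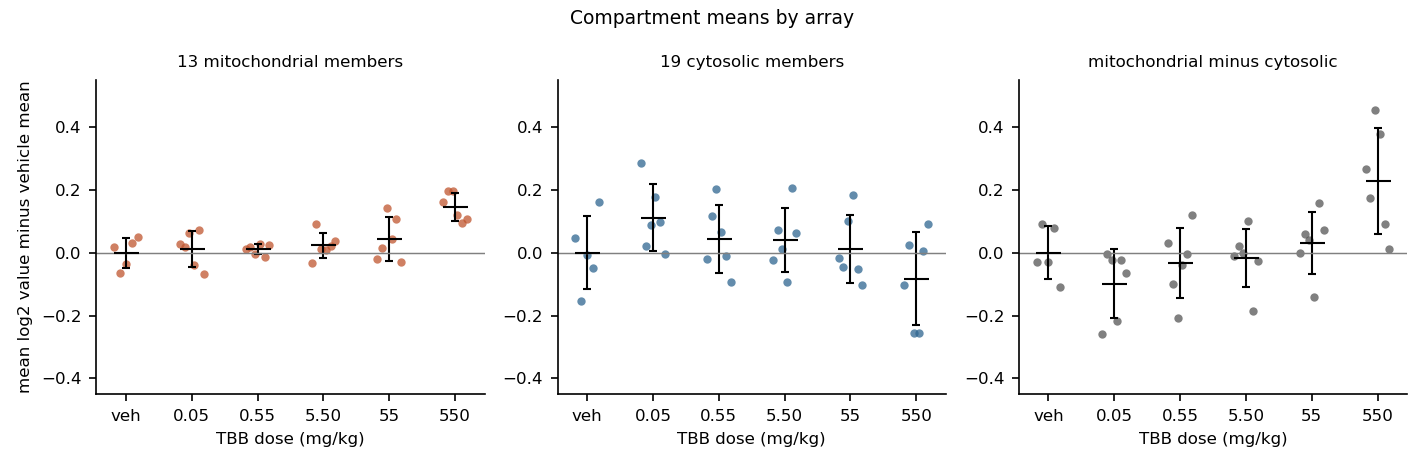
Mean log2 value over the 13 mitochondrial members, over the 19 cytosolic members, and their within-array difference, each minus its vehicle mean (y axis), by dose in mg/kg (x axis). Points are arrays and bars are group mean ± SD; at 550 mg/kg the mitochondrial mean is 0.15 above vehicle, the cytosolic mean 0.08 below it and the difference 0.23 above it.

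Enzymes for the same amino acid were set against each other in 14 pairs, which held all 13 mitochondrial members (Fars2 has 2 partners, since the cytosolic enzyme is made of the Farsa and Farsb subunits). At 550 mg/kg the change from vehicle was higher on the mitochondrial side in 14 of 14 pairs, by 0.02 to 0.44 with a median of 0.24. That count rests on the chosen probe sets. For tryptophan, Wars2 differed by 0.08 and Wars1 by -0.12. The second Wars2 probe set, of nearly the same mean level, differed by -0.18, which would turn that pair the other way. For threonine, Tars2 rose by 0.28 while Tars1 differed by -0.15 ± 0.08 (adjusted p = 0.60, limma). The within-array gap between the 2 probe sets, taken relative to its vehicle mean, was -0.10 to 0.18 on vehicle arrays and 0.35 to 0.54 at 550 mg/kg. Threonine was the single pair whose vehicle and 550 mg/kg arrays did not overlap. The gap was taken on the brighter Tars2 probe set, the dimmer one having differed from vehicle by 0.12. How often such gaps separate over other pairs of genes was not computed.

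For isoleucine, Iars1 differed by -0.09 ± 0.14 (adjusted p = 0.92, limma), and its arrays at 550 mg/kg spread from 7.88 to 8.70, against 8.38 to 8.60 in vehicle. The Iars2 to Iars1 gap therefore overlapped between groups, at -0.06 to 0.93 against -0.07 to 0.15. For phenylalanine, the catalytic subunit gene Farsa differed by -0.01 ± 0.06 (adjusted p = 0.98, limma) and Farsb by -0.11 ± 0.08 (adjusted p = 0.76, limma). The smallest gap was that of valine, at 0.02, where neither Vars2 nor Vars1 moved beyond its error.

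**Figure D4:**
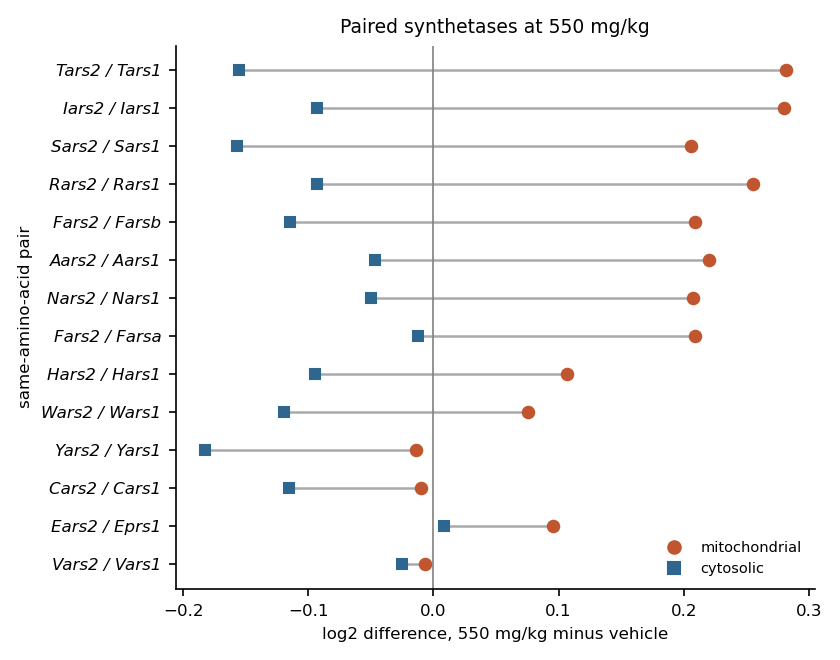
Log2 difference between 550 mg/kg and vehicle (x axis) for the mitochondrial and cytosolic enzyme of each of 14 same-amino-acid pairs (y axis), joined by a line. On the chosen probe sets the mitochondrial point lies to the right in 14 of 14 pairs, with gaps from 0.02 for valine to 0.44 for threonine.

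The next lower dose asks what 550 mg/kg adds. Against 55 mg/kg, 3 mitochondrial members rose, namely Iars2 by 0.29 ± 0.06 (adjusted p = 0.010), Fars2 by 0.24 ± 0.06 (adjusted p = 0.025) and Tars2 by 0.24 ± 0.06 (adjusted p = 0.031, all limma). Among all probe sets 0.577% were called higher and 0.11% lower. No cytosolic member was called. An unadjusted p under 0.05 was reached by 5 of 13 mitochondrial and 2 of 19 cytosolic members (Gars1 and Farsb, both lower), against 11.5% of all genes in either direction. Arrays of Fars2 and Iars2 did not overlap between 55 and 550 mg/kg, against 0.825% of all probe sets with all arrays higher. Tars2 overlapped, because 2 arrays at 55 mg/kg (8.36 and 8.45) read above the lowest array at 550 mg/kg (8.32). Leaving out 55 mg/kg replicate 1, 55 mg/kg replicate 6 or 550 mg/kg replicate 2 left Iars2 as the single call. The median differences were 0.068 over the mitochondrial and -0.079 over the cytosolic members, against -0.006 over all genes. With 1 array left out they ran from 0.029 (without 55 mg/kg replicate 1) to 0.099 and from -0.12 (without 55 mg/kg replicate 6) to -0.039 (without 55 mg/kg replicate 4).

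To set more arrays on the low side, 550 mg/kg was compared with the mean of vehicle and the 3 lowest doses; these comparisons share the 550 mg/kg arrays. In this comparison Tars2 was higher by 0.28 ± 0.04 (adjusted p = 0.00017), Fars2 by 0.25 ± 0.04 (adjusted p = 0.00047) and Iars2 by 0.23 ± 0.05 (adjusted p = 0.0031, all limma). Gars1 fell by 0.29 ± 0.08 on the log2 scale (adjusted p = 0.044, limma). It was the 1 call in any comparison among the members listed as cytosolic, although its gene serves both compartments. Across all probe sets 1.58% were called higher and 1.05% lower. For Fars2 every array at 550 mg/kg exceeded every array of those 4 groups, which was so for 0.203% of all probe sets.

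All 13 mitochondrial differences were above 0 in this comparison (median 0.12), although the second probe sets of Wars2 and Hars2 differed by -0.10 and -0.03. Of the cytosolic differences 18 of 19 were below 0 (median -0.12), while the median over all genes was -0.004. At an unadjusted p under 0.05, 6 mitochondrial members were higher and 7 cytosolic members lower (Gars1, Farsb, Tars1, Yars1, Rars1, Sars1 and Cars1), against 16.9% of all genes in either direction. The Gars1 call was lost with the replicate number as a block (adjusted p = 0.062), with only the groups compared in the fit (0.067) and on the mean of its probe sets (0.13, all limma). It was also lost in 7 of 11 fits that left out a vehicle or 550 mg/kg array, most of all without 550 mg/kg replicate 3 (adjusted p = 0.23, difference -0.21). The second Gars1 probe set differed by -0.20 (adjusted p = 0.48, limma).

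At doses below 550 mg/kg no member was called. At 0.05, 0.55 and 5.50 mg/kg 0% of all probe sets were called against vehicle, and at 55 mg/kg 0.00644% were. Of the 13 mitochondrial members 2, 0, 1 and 1 had an unadjusted p under 0.05 at 0.05, 0.55, 5.50 and 55 mg/kg, and of the cytosolic members 1, 0, 0 and 0. The shares of all genes were 6.44%, 3.29%, 5.18% and 4.33%. The mitochondrial medians at those doses were 0.03, 0.04, 0.01 and 0.04, with 9, 8, 9 and 10 of 13 members above vehicle. Tars2 differed from vehicle by -0.04, 0.04, 0.01 and 0.04, Iars2 by 0.05, 0.05, 0.08 and -0.01, and Fars2 by -0.14, -0.02, -0.02 and -0.03. None of these 3 enzymes thus stood above vehicle by more than 0.08 at any dose short of 550 mg/kg. Sars2 was above vehicle at each of those doses, by 0.13, 0.07, 0.13 and 0.17. Its unadjusted p was under 0.05 in limma at 0.05, 5.50 and 55 mg/kg. At 550 mg/kg Sars2 stood 0.03 ± 0.06 above the 55 mg/kg group (adjusted p = 0.92, limma).

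On the cytosolic side most members were above vehicle at each dose below 550 mg/kg. At the lowest dose 16 of 19 were, with a median of 0.12 and no call (smallest adjusted p = 0.80, limma), against 46.3% of all genes. Yars1 was the furthest, at 0.25, and Farsb stood at 0.18. The cytosolic medians were 0.06, 0.05 and 0.02 at 0.55, 5.50 and 55 mg/kg. At these doses 14, 15 and 12 of 19 members were above vehicle, against 48.0%, 45.8% and 47.0% of all genes. The number of pairs with the higher change on the mitochondrial side was 1, 3, 4, 9 and 14 of 14 from 0.05 to 550 mg/kg. All 5 of these dose comparisons share the 5 vehicle arrays. The 14 pairs are not separate observations either, since the cytosolic members moved together from array to array, as given below. How such counts run over other pairs of genes was not computed.

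A slope over dose rank, from 0 for vehicle to 5 for 550 mg/kg, was above 0 for 13 of 13 mitochondrial members, the lowest at 0.0003 for Vars2. It was below 0 for 18 of 19 cytosolic members. Over all genes 47.9% had a slope above 0. Such a slope cannot tell a graded change from a step at the highest dose. No member's slope passed the threshold in limma, where 0.171% of all probe sets did. At an unadjusted p under 0.05 there were 5 of 13 mitochondrial and 2 of 19 cytosolic members, against 12.3% of all genes. Tars2 came nearest, at 0.048 ± 0.011 log2 units per dose step (adjusted p = 0.057, limma), and Gars1 had a slope of -0.056 ± 0.019 (adjusted p = 0.24, limma).

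**Figure D5:**
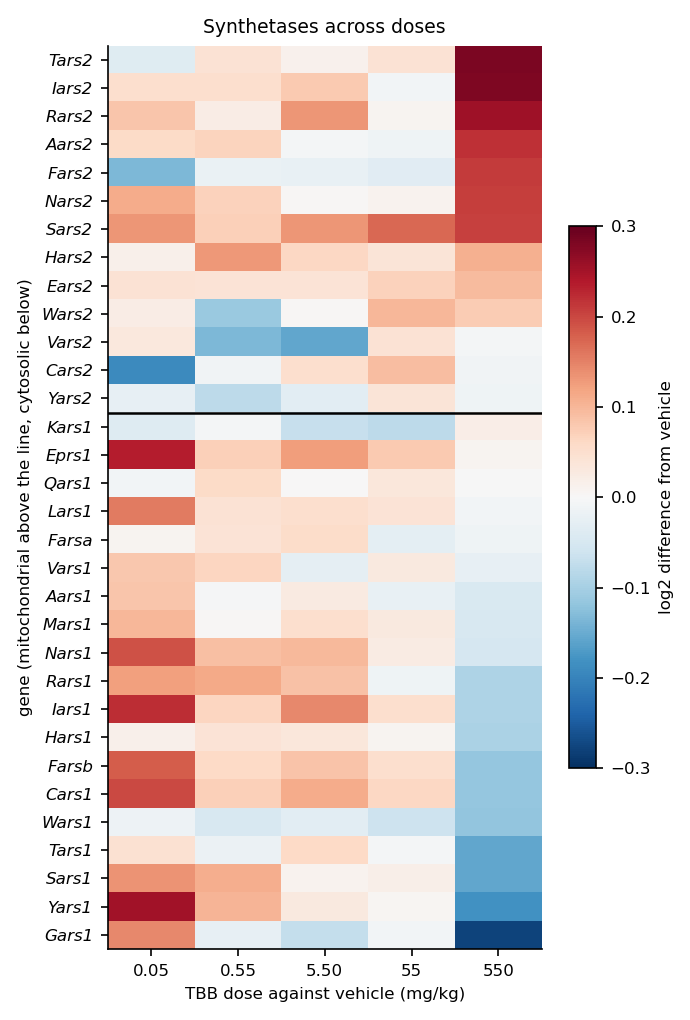
Log2 difference from vehicle (colour, from -0.3 to 0.3) for each of the 32 members (rows, by compartment) at each of the 5 doses in mg/kg (columns). In the mitochondrial block 9, 8, 9, 10 and 10 of 13 values are positive from 0.05 to 550 mg/kg, with medians of 0.03, 0.04, 0.01, 0.04 and 0.21. In the cytosolic block 16, 14, 15 and 12 of 19 are positive at 0.05, 0.55, 5.50 and 55 mg/kg, and 17 of 19 are negative at 550 mg/kg.

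Within a dose group the cytosolic genes went up and down together from array to array, more than the mitochondrial genes did by the measures that follow. A single cytosolic member had a median within-group SD of 0.14 and a single mitochondrial member one of 0.13. The SD of the mean over all members was 0.12 for the cytosolic set but 0.05 for the mitochondrial set. In 14 of 35 arrays at least 16 or at most 3 of the 19 cytosolic members were above their own group mean. A like imbalance (at least 11 or at most 2 of 13) occurred in 0 of 35 arrays for the mitochondrial members.

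In vehicle replicate 2, for example, 1 of 19 cytosolic members was above the group mean, and in vehicle replicate 5 it was 18 of 19. In 0.05 mg/kg replicate 1 all 19 were above it. The 550 mg/kg group was itself split, with 15, 17 and 16 of 19 above the group mean in replicates 2, 5 and 6 and with 5, 4 and 1 in replicates 1, 3 and 4. In the mitochondrial set the counts in those 6 arrays were 9, 6 and 5, and 5, 10 and 6, of 13.

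The promoters of the 3 mitochondrial genes called higher at 550 mg/kg in at least 1 comparison are shown because these are the members on which the dose comparison turns. Each line gives the 150 bases upstream of the annotated start from RefSeq (GRCr8), 5′ to 3′ on the gene's strand, with matches to CCGGAAG, the core bound by ETS factors such as GABP, in capitals. The regions are chr2:185999114-185999263 (minus strand) for Tars2, chr13:99397069-99397218 (minus strand) for Iars2 and chr17:28951552-28951701 (minus strand) for Fars2.
Tars2: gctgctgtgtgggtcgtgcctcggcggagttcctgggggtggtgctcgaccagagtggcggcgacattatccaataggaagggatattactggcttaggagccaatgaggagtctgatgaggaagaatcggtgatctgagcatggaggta
Iars2: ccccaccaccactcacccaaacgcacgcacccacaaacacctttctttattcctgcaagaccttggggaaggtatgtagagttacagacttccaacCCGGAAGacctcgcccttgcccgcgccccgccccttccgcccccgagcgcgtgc
Fars2: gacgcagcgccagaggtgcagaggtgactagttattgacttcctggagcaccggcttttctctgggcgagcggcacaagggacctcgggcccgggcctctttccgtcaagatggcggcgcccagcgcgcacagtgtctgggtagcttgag

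Of the 32 measured members 30 had a promoter in the RefSeq table (all but Gars1 and Rars1), and 250 bases upstream were searched on both strands. CCGGAAG occurred in 5 of 13 mitochondrial promoters (Cars2, Hars2, Iars2, Rars2 and Sars2) and in 9 of 17 cytosolic ones, against 7.74% of 27457 promoters. Of the 3 called mitochondrial genes Iars2 alone held it. The matches of Hars2 and of the cytosolic Hars1, whose starts lie 144 bases apart on opposite strands, are the same sites, counted in both compartments. The palindrome of NRF1, an activator of respiratory genes, occurred in 1 of 13 mitochondrial promoters (Wars2) and 3 of 17 cytosolic ones, against 4.17% of all. TNGCGTG, the core of the element bound by the aryl hydrocarbon receptor, occurred in 3 of 13 mitochondrial promoters (Nars2, Sars2 and Yars2) and 1 of 17 cytosolic ones (Aars1), against 4.26% of all. A match is a string of letters and not a measured binding site.

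TGATGNAA, the composite element of ATF4 with a C/EBP protein, occurred in 0 of 13 mitochondrial and 5 of 17 cytosolic promoters, against 3.27% of all promoters. The difference between the compartments was not tested. The cytosolic windows that hold it are shown because many cytosolic synthetase genes are known targets of ATF4. How closely these 5 genes varied together was not measured. Each is 60 bases long and upstream of the start, the bases 138 to 79 before it for Aars1 and 60 to 1 before it for the others, 5′ to 3′ on the gene's strand in RefSeq (GRCr8), with the match in capitals in either orientation. They lie at chr19:55908344-55908403 (plus strand) for Aars1, the alanine enzyme, chr17:15193653-15193712 (minus strand) for Iars1, chr7:65023754-65023813 (minus strand) for Mars1, the methionine enzyme, chr18:60275783-60275842 (minus strand) for Nars1, the asparagine enzyme, and chr2:62114803-62114862 (minus strand) for Tars1.
Aars1: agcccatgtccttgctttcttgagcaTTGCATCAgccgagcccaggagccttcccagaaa
Iars1: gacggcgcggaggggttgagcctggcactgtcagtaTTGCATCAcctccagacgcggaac
Mars1: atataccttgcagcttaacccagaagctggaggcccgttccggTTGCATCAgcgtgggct
Nars1: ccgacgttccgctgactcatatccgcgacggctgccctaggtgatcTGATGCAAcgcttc
Tars1: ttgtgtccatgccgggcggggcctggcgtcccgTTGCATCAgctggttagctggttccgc

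The 5 genes with this element differed from vehicle at 550 mg/kg by -0.15 to -0.05, with a median of -0.05. The 12 cytosolic genes with a promoter but without the element differed by -0.18 to 0.02, with a median of -0.06. Their within-group SDs were 0.13 to 0.25 (median 0.17) with the element and 0.09 to 0.24 (median 0.14) without it, so both ranges overlapped. The cytosolic Hars1 and the mitochondrial Hars2, both for histidine, are neighbours read in opposite directions, with starts 144 bases apart. At 550 mg/kg they differed from vehicle by -0.09 ± 0.08 and 0.11 ± 0.09, neither called in limma (adjusted p = 0.82 and 0.80).

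Around the synthetases, the genes of 7 related lists were read from the same fit, and none of their members was called at 550 mg/kg against vehicle. The smallest p in 4 of them belonged to Gatb (0.25), Gfm1 (0.16), Osgepl1 (0.21) and Eef1e1 (-0.25), with adjusted p of 0.34, 0.30, 0.33 and 0.54 in limma. In the mitochondrial charging list (transamidation of the glutamine tRNA and formylation of the initiator tRNA) 3 of 4 measured members were above vehicle. Its Gatb, a subunit of the glutamyl-tRNA amidotransferase, was higher against vehicle and the 3 lowest doses by 0.25 ± 0.07 (adjusted p = 0.034, limma). Of the mitochondrial translation factors 8 of 10 were above vehicle (median 0.08). Gfm1, the mitochondrial elongation factor G, rose by 0.18 ± 0.04 against the same pooled groups (adjusted p = 0.013, limma). Gatb was the 1 call of 4 and Gfm1 the 1 call of 10 there, where 1.58% of all probe sets were called higher.

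Genes of mitochondrial tRNA processing and modification were evenly divided, 7 of 14 above and 7 below vehicle (median 0.01). Osgepl1, which makes a modified adenosine next to the anticodon of mitochondrial tRNAs, rose by 0.29 ± 0.07 against 55 mg/kg (adjusted p = 0.044) and by 0.30 ± 0.06 against the pooled low groups (adjusted p = 0.0014, both limma). It was the 1 call of 14 in each, where 0.577% and 1.58% of all probe sets were called higher. Genes of mitochondrial biogenesis and content had a median of -0.02, with 8 of 19 above vehicle. The protease gene Lonp1 had the smallest p of them, at 0.18 ± 0.07 (adjusted p = 0.39, limma). Against the pooled low groups 2 of its 19 genes, the import receptor Tomm20 and the import pore Tomm40, fell by 0.19 and 0.24 on the log2 scale (adjusted p = 0.050, under the threshold before rounding, and 0.020, limma), where 1.05% of all probe sets were called lower.

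On the cytosolic side, 7 of 8 genes of the multisynthetase complex and accessory list were below vehicle (median -0.08). Eef1e1, a scaffold of the complex, fell by 0.32 ± 0.09 on the log2 scale against the pooled low groups (adjusted p = 0.037, limma). It was the 1 call of 8 there, where 1.05% of all probe sets were called lower. Among the cytosolic elongation factors 4 of 5 were below vehicle (median -0.07), with Eef2 at -0.13 ± 0.07 (adjusted p = 0.61, limma).

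The list of ATF4 and amino acid response genes had 22 of 27 measured members below vehicle at 550 mg/kg, with a median of -0.24 and no call. Atf5, itself a transcription factor of that response, had the smallest p, at -0.53 ± 0.14 (adjusted p = 0.073, limma). Atf5 fell by 0.56 ± 0.13 on the log2 scale against 55 mg/kg (adjusted p = 0.028, limma). Atf5 and Slc3a2, a subunit of amino acid transporters, fell by 0.49 and 0.48 against the pooled low groups (adjusted p = 0.0042 and 0.018, limma). These were 1 call of 27 against 55 mg/kg and 2 of 27 against the pooled groups. Of all probe sets 0.11% and 1.05% were called lower there. The mean level of this list was 7.84 to 8.47 on vehicle arrays and 7.34 to 8.32 at 550 mg/kg.

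In the 550 mg/kg group the same 2 arrays, replicates 3 and 4, had the lowest list mean of the ATF4 genes (7.34 and 7.64) and the lowest cytosolic synthetase mean (both 8.64). In the 0.05 mg/kg group replicate 1 had the highest cytosolic mean, 9.18, but a list mean of 7.98, second lowest of 6. Whether the ATF4 genes account for the spread of the cytosolic synthetases was not tested.

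Markers of liver cell types were read from the same arrays, 54 of 66 listed genes in 8 lists. The hepatocyte list averaged 13.75 to 13.79 on vehicle arrays and 13.66 to 13.75 at 550 mg/kg, a narrow overlap. Over its 10 measured genes, Apoa1 among them, the median difference was -0.02, with 7 below vehicle. The 1 marker called at 550 mg/kg was Apoa1, the main protein of high-density lipoprotein, which fell by 0.51 ± 0.06 on the log2 scale (adjusted p = 7.3e-06, limma). Kupffer cell and macrophage markers were below vehicle in 9 of 9 genes (median -0.22) and red blood cell markers in 4 of 4 (median -0.41), with no call. Their list means overlapped between groups, at 8.63 to 9.03 in vehicle against 8.22 to 8.94 for the first and 7.02 to 7.46 against 6.76 to 7.09 for the second. In the other 7 lists the smallest p belonged to Clec4f (-0.34), Hbb (-0.46), Stab1 (-0.24), Cd3g (-0.31), Pdgfrb (-0.30), Spp1 (0.20) and Cxcr2 (-0.10), none called. The part of these cell types in the synthetase values was not tested.

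Several members had more than 1 single-symbol probe set. Of these 14 genes, 10 had probe sets that all differed from vehicle in the same direction at 550 mg/kg, and 4 had both signs. For Wars2, the tryptophan enzyme of the mitochondrion, the choice rested on means of 5.710 and 5.707. Its chosen probe set differed from vehicle by 0.08 ± 0.08 and the other by -0.18 ± 0.08, neither called (adjusted p = 0.86 and 0.44, limma). Iars2 and Fars2 each had a single probe set, so nothing on the array repeats their measurement.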

How the data were processed

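Livers were profiled on single-colour Affymetrix arrays, and RNA had to reach an integrity number of at least 7.0, per the labels' protocols. The deposited values are log2 expression by probe set. Per the submitters' processing notes the authors used RMA and affy, whose versions the sources used here do not give. RMA usually includes quantile normalisation, which hides any shift common to most genes, and it understates the fold changes of dim genes. For arrays, their number limits the precision.

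Of 31099 probe sets, 57 controls were left out. The remaining 31042 entered a single limma model (version 3.58.1 under R 4.3.3, eBayes, two-sided), in which each dose group had its own mean and all 35 arrays shared the estimate of spread. The 8 comparisons were each adjusted by Benjamini-Hochberg. The data.table package (version 1.17.8) served to read files. The design text names another R package for the comparisons with vehicle, which was not used here. Gene symbols came from the platform annotation, which gave 20826 probe sets a single symbol. The fit was checked on simulated data. Figures were drawn with matplotlib 3.10.9.

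The members, lists and comparisons were chosen with earlier results of these data known. Named with values were members called in any comparison, the up to 3 largest positive and 3 largest negative differences per compartment at 550 mg/kg against vehicle, same-amino-acid partners of called members, and, of each list, up to 3 called genes at 550 mg/kg or otherwise the gene with the smallest p. Other members, and list genes called in other comparisons, were named after their values were seen. Promoters came from RefSeq (GRCr8). The alternatives were a filter on the dimmest 40% of probe sets, 2 other scalings between arrays, moderated variance with trend and robust settings, array weights, a replicate block, fits of only the groups compared, the mean of a gene's probe sets, a minimum change of 1.5-fold, and each array of the groups compared left out in turn (for the trend and the pooled low groups, each vehicle and 550 mg/kg array).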

Additional observations from a re-analysis of the deposited data

Results flagged for a closer look

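In 4 of the 108 sets of arrays examined (the 16 named members and the means of the 2 compartments, by dose group) 1 array stood apart from the rest of its group by Dixon's criterion, and chance alone flags about 1 in 20. Fars2 read 7.44 in 5.50 mg/kg replicate 1, with the nearest other array at 7.62. Farsb read 8.95 in 0.05 mg/kg replicate 1, the array with all 19 cytosolic members above their group mean, against 8.65 for the nearest. Iars1 read 9.13 in 5.50 mg/kg replicate 5 against 8.68. Yars2 read 8.11 in that same array against 8.03. None of these 3 arrays belongs to the vehicle or the 550 mg/kg group.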

How the results depend on the processing

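No member changed by 1.5-fold, so a minimum change of that size left 0 calls at 550 mg/kg against vehicle, against 55 mg/kg and against the pooled low groups. Fitting only the groups compared, with fewer arrays to estimate the spread, gave 0 calls against vehicle (adjusted p = 0.11 for Tars2 and 0.18 for Iars2) and 0 against 55 mg/kg (Tars2 0.18). Subtracting array medians left 1 call against vehicle (Tars2) and 1 against 55 mg/kg (Iars2; Tars2 had 0.065), and moved Eprs1 against vehicle to -0.0020. The mean of a gene's probe sets left 1 call against vehicle (Iars2; Tars2 had an adjusted p of 0.12), lost Tars2 against 55 mg/kg (0.17, adjusted p = 0.15), and gave cytosolic medians of -0.047 against both vehicle and 55 mg/kg and a mitochondrial median of 0.032 against 55 mg/kg. Eprs1 against 55 mg/kg became 0.010 there. Without the 40% dimmest probe sets, which drops Nars2, the mitochondrial median against vehicle was 0.16. The trend gave 1 call (Tars2) under that filter, cyclic loess, eBayes with trend and robust settings, and array weights. Under cyclic loess Cars2 (0.0094), Farsa (0.0016) and Yars2 (0.0048) changed sign against vehicle. Fars2 was called against vehicle there (adjusted p = 0.043, limma), and in all under 2 of 8 settings with no fold minimum. Farsb against the pooled low groups was called lower under 1 of those 8 (adjusted p = 0.046, limma). Except where a setting's construction is named, the cause was not tested. Fars2, Iars2 and Tars2 against the pooled low groups were called under all 8 settings with no fold minimum and in all 11 fits that left out a vehicle or 550 mg/kg array. The arrays of the 3 lowest doses were not left out in turn.

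With 1 array of either compared group left out there were 0 to 2 calls against vehicle and 1 to 3 against 55 mg/kg. With 1 vehicle or 550 mg/kg array left out there were 3 to 6 against the pooled low groups and 0 to 1 for the trend. Against vehicle Tars2 was called in 10 of 11 fits (adjusted p 0.0032 to 0.062) and Iars2 in 5 of 11 (0.021 to 0.11). The Iars2 call was lost without vehicle replicate 1, 3 or 4 or 550 mg/kg replicate 2, 3 or 4. Against 55 mg/kg Iars2 was called in 12 of 12, Fars2 in 6 (lost without 55 mg/kg replicate 1, 2 or 6 or 550 mg/kg replicate 1, 2 or 4) and Tars2 in 4 (lost without 55 mg/kg replicate 1, 4, 5 or 6 or 550 mg/kg replicate 2, 3, 5 or 6). Gars1 against the pooled low groups was lost without vehicle replicate 1, 3 or 5 or 550 mg/kg replicate 1, 2, 3 or 4, and without 550 mg/kg replicate 6 Farsb and Yars1 were called lower there (adjusted p = 0.040 and 0.048). The mitochondrial median against vehicle ran from 0.12 (without 550 mg/kg replicate 1) to 0.22, and at 0.05 mg/kg from -0.016 (without vehicle replicate 2) to 0.061. Uncalled members near 0 changed sign. Against vehicle the ranges were -0.075 to 0.033 for Cars2, -0.032 to 0.095 for Eprs1, -0.043 to 0.0059 for Farsa, -0.15 to 0.011 for Iars1, -0.016 to 0.039 for Kars1, -0.095 to 0.053 for Vars2 and -0.040 to 0.015 for Yars2. Against 55 mg/kg they were -0.026 to 0.041 for Farsa and -0.099 to 0.0063 for Vars2, and against the pooled low groups -0.0056 to 0.049 for Yars2.

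Same-numbered vehicle and 550 mg/kg arrays deviated together at correlations of -0.011 to 0.086, with 0 of 5 over 0.1. Between vehicle and 55 mg/kg they were -0.15 to 0.13, with 1 of 5 over 0.1. In neither case was an array highest with its own number. These values gave no sign of pairing by number but cannot exclude it, and the other doses were not checked. With the replicate block 2 members were called against vehicle, 3 against 55 mg/kg and 3 against the pooled low groups, and Vars2 against vehicle became 0.013.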
